A study of Mus musculus with 9 samples.

Results

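The report concerns 8 genes known as regulators or marks of naive and stem-like T cells: Tcf7, Lef1, Satb1, Bach2, Txk, Dapl1, Tox and Igfbp4. They were chosen by gene symbol, and each was read from the probe sets that the array's annotation gives to that symbol. The annotation used here named probe sets for 7 of the 8 genes, 21 probe sets in all, among 18193 genes with a named probe set. Tcf7 was not analysed here. For each gene the probe set with the highest mean over the 9 arrays stood for the gene and the others served as a check. Probe sets whose name ends in _x_at could stand for a gene only if it had no other.

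A naive T cell has left the thymus and has not yet met its antigen. It recirculates through lymph nodes in a quiescent state held by transcription factors such as TCF1 (the product of Tcf7), LEF1, FOXO1 and KLF2, and it loses much of that programme once its antigen receptor is engaged. BACH2 represses effector genes and favours regulatory T cells, SATB1 folds chromatin around T cell genes, and stem-like memory cells keep parts of the naive programme while they divide.

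Expression was measured on whole-genome Affymetrix mouse arrays, 3 arrays in each of 3 groups, described as biological replicates in the series' design text. In 2 of the groups the cells were induced regulatory T cells (iTreg), CD4 cells that acquire the regulatory factor Foxp3 in culture. They began as spleen CD4+ cells without the green reporter of Foxp3, sorted from Foxp3EGFP mice on the C57BL/6 strain, and stayed in culture for 72 hours with IL2 at 100 U/ml, on plates coated with 2.5 µg/ml of antibody to CD3, with antibody to CD28 at 1 µg/ml in the medium. In the platelet iTreg (pltTGFβ-iTreg) TGFβ came from freeze-thaw lysates of platelets of wild-type C57BL/6 mice, at a concentration that the labels do not give. In the purified iTreg (purTGFβ-iTreg) it was purified TGFβ1 at 5 ng/ml. The third group, Tconv, holds conventional T cells. How these were treated is not settled by the labels, because the same treatment note stands on every sample and says that TGFβ1 at 5 ng/ml was given to Tconv. Whether the iTreg were purified by their reporter before lysis is not said either.

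All groups carried T cell transcripts: Cd3d, a chain of the T cell receptor complex, read 12.38 in platelet iTreg, 12.37 in purified iTreg and 12.80 in Tconv (mean log2 value). Foxp3 read 3.86, 3.77 and 3.79 in the same groups and passed the test in none of the comparisons. The Tconv arrays stood apart: their correlation over probe sets was 0.962 to 0.970 with platelet iTreg and 0.956 to 0.967 with purified iTreg, while platelet and purified iTreg arrays had correlations of 0.993 to 0.995. Xist, expressed from the inactive X chromosome of females, read 3.94 in platelet iTreg, 3.61 in purified iTreg and 10.81 in Tconv, and the Y-linked Eif2s3y read 8.95, 9.01 and 2.70. Sex of the animals and group cannot be told apart in any comparison with Tconv. None of the measured genes lies on a sex chromosome, but this does not separate sex from group. The comparison between the iTreg groups is not split by sex in this way. Summed intensities of marker genes on the linear scale were 85.1 to 98.9 in platelet iTreg, 88.1 to 98.9 in purified iTreg and 134 to 151 in Tconv for B cells (6 of 7 markers measured), 190 to 198, 249 to 309 and 190 to 211 for CD8 or NK cells (5 of 6 measured), and 211 to 231, 214 to 235 and 282 to 336 for platelets (8 of 9 measured). Of the B cell markers only Cd79b was called against Tconv, with means of 4.37, 4.56 and 6.02 in the same groups. Among the CD8 or NK cell markers Klrd1 was called higher in iTreg (6.06, 7.34 and 4.16) and Cd8b1 lower (5.71, 5.78 and 6.75). The B cell and the CD8 or NK cell sums therefore do not stand for their lists as a whole. Of the platelet markers, Itga2b was called lower in both iTreg groups and Gp6 in platelet iTreg only. The median log2 change of the platelet markers was -0.38 in platelet iTreg and -0.35 in purified iTreg, beside -0.16 and -0.17 over all genes. The part of such cells in the results below was not tested. In bulk RNA, fewer cells of a type and less RNA per cell cannot be told apart.

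Promoter windows of the 5 genes that changed are shown first, because the genes fall into 2 groups by direction and a reader may wish to see whether their start regions look alike. Each is the RefSeq window of 300 bases in GRCm38.p6, from 250 bases before to 50 after an annotated transcription start, read on the gene's own strand. Lower case is used throughout except for matches to searched motifs, which are in capitals. The motifs searched on both strands were the TCF/LEF words CTTTGAA and CTTTGTT, the AP-1 and BACH word TGAGTCA, the FOXO word TGTTTAC and the GC-rich SMAD word GGCGCC. These words do not overlap in the windows shown. Txk and Satb1 have further windows, which are not shown. Igfbp4 lies at chr11:99040994-99041293 (+), the first of the Txk windows at chr5:72752728-72753027 (-), Bach2 at chr4:32417185-32417484 (+), the second of the Satb1 windows at chr17:51832598-51832897 (-) and Dapl1 at chr2:59484403-59484702 (+).
Igfbp4: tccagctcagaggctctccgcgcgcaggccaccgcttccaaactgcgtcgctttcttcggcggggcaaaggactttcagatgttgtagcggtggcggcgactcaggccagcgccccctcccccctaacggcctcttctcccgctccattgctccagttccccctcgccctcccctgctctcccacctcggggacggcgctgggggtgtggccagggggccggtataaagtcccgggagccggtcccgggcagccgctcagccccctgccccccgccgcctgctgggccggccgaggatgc
Txk: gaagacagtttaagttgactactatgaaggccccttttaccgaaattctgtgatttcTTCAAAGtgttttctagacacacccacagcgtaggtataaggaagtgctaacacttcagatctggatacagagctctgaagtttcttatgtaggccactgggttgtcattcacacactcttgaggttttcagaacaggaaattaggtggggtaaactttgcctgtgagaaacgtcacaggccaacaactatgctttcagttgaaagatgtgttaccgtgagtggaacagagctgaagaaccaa
Bach2: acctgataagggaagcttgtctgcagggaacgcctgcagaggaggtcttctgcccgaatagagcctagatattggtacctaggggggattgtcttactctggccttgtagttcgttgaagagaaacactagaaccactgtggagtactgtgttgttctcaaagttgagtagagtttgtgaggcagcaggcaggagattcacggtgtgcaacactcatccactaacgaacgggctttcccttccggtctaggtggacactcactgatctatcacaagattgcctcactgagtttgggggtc
Satb1: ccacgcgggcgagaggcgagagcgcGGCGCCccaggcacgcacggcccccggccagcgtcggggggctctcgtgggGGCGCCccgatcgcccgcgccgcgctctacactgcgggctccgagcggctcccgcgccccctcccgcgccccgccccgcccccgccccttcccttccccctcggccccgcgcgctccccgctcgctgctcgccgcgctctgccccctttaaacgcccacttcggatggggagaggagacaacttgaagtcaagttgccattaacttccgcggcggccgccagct
Dapl1: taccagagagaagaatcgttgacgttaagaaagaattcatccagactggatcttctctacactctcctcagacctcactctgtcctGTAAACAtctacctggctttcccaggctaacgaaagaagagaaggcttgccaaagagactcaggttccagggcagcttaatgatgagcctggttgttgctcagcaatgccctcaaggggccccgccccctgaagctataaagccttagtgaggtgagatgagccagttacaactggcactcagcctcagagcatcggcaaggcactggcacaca

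Base composition differed widely among these windows. The G and C share was 71.3% for Igfbp4, 42.7% for Txk, 50.3% for Bach2, 76.7% for Satb1 and 51.0% for Dapl1, where the middle 50% of all 32851 RefSeq windows lay between 45.7% and 61.7%. The Txk window held CTTTGAA on its opposite strand, 193 bases upstream of the start, a word found in 5.14% of all windows. The Dapl1 window held TGTTTAC on its opposite strand, 164 bases upstream, a word found in 3.65% of windows. The Satb1 window held GGCGCC at 225 and 174 bases upstream, a word found in 11.9% of windows and one that a window rich in G and C holds more readily. No searched word was found in the Igfbp4 and Bach2 windows, and TGAGTCA (5.2% of all windows) was in none of the 16 windows of the 7 genes that the RefSeq table covers. CTTTGTT (5.85% of all windows) was in 2 overlapping windows of downstream Satb1 starts. A match is a run of letters, not a measured binding site.

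Against Tconv, 5 of the 7 measured genes changed in both kinds of iTreg, and in the same direction in each. Igfbp4, Txk and Bach2 were higher in iTreg, by 2.47- to 11.4-fold, and Satb1 and Dapl1 were lower, by 2.36- to 4.66-fold. Lef1 and Tox did not pass. A call needed an adjusted p below 0.1 together with a log2 change of more than 0.5 in size, the authors' cutoffs. Of all 18193 genes, 28.5% were called between platelet iTreg and Tconv and 29.3% between purified iTreg and Tconv, so a call in these comparisons was common. The shares were 13.9% higher and 14.7% lower for platelet iTreg and 14.5% higher and 14.9% lower for purified iTreg. The higher genes made up 48.5% and 49.3% of those called, against 38.4% and 38.6% after a further quantile normalization. Over all 21 probe sets of the 7 genes, 10 were called higher and 5 lower in each of these comparisons, where 15.0% of all probe sets were higher, 10.3% lower and 25.3% called in platelet iTreg and 15.5%, 10.4% and 25.8% in purified iTreg. The groups' arrays did not overlap for the same 5 genes in each comparison, against 59.0% of all genes for platelet iTreg and 62.7% for purified iTreg. The median log2 change over these 7 genes was -0.04 for platelet iTreg and 0.09 for purified iTreg, beside -0.16 and -0.17 over all genes. Both comparisons use the same 3 Tconv arrays. Adjusted p-values throughout are from limma over all 45037 probe sets, with Benjamini-Hochberg adjustment, intervals are 95% intervals, and values are log2 intensities unless a fold is given. The plot of log2 values by array shows how closely the 3 arrays of a group lay together.

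**Figure D1:**
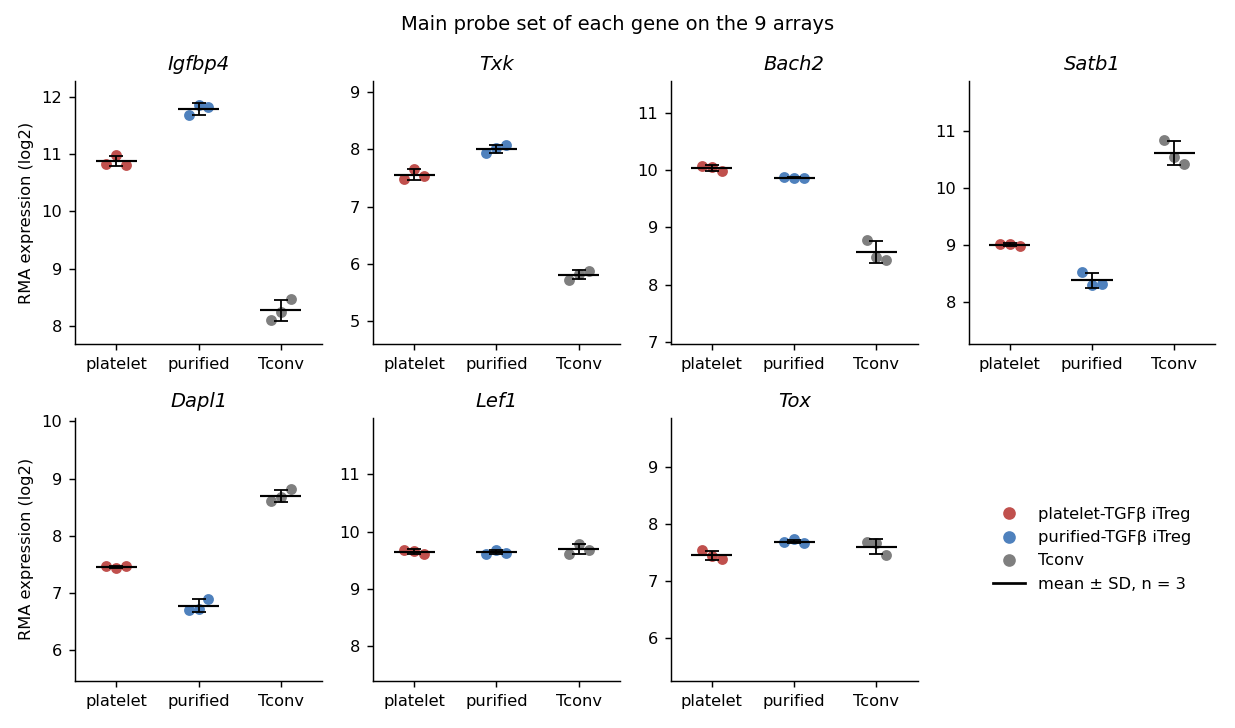
Log2 expression (vertical axis) of the main probe set of each of the 7 measured genes on every array, with platelet iTreg left, purified iTreg in the middle and Tconv right; points are arrays and bars are group means. Igfbp4, Txk and Bach2 sit higher in both iTreg groups than in Tconv, Satb1 and Dapl1 lower, and Lef1 spans only 0.19 over all 9 arrays.

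Among the transcription factors, Bach2, the repressor of effector programmes, read 10.08, 10.06 and 9.98 in platelet iTreg, 9.89, 9.86 and 9.86 in purified iTreg and 8.78, 8.48 and 8.44 in Tconv. Every iTreg array lay above every Tconv array, and the platelet arrays lay just above the purified ones. Bach2 rose 2.78-fold in platelet iTreg against Tconv (log2 change 1.47 ± 0.10, SE; interval 1.27 to 1.68; adjusted p = 2.38e-07). In purified iTreg it rose 2.47-fold (1.30 ± 0.10; interval 1.09 to 1.51; adjusted p = 5.39e-07). A second Bach2 probe set, 1437667_a_at, was also called higher, by 0.76 and 0.67. The third, 1445460_at, was called higher in platelet iTreg (0.55) and read 0.19 higher in purified iTreg (adjusted p = 0.135).

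Satb1, the chromatin organiser, moved the other way. It read 9.03, 9.03 and 8.98 in platelet iTreg, 8.54, 8.30 and 8.32 in purified iTreg and 10.84, 10.55 and 10.42 in Tconv. The 3 groups did not overlap at any point, with purified iTreg lowest, platelet iTreg between and Tconv highest. Satb1 was 3.02-fold lower in platelet iTreg than in Tconv (log2 change -1.59 ± 0.11, SE; interval -1.84 to -1.35; adjusted p = 4.11e-07). In purified iTreg it was 4.66-fold lower (-2.22 ± 0.11; interval -2.46 to -1.98; adjusted p = 2.85e-08). Of its 5 probe sets, 4 were called lower in both comparisons. The exception was the dimmest of them, 1439315_at.

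Lef1, whose product is a relative of TCF1 in the WNT and β-catenin pathway, held a steady level. It read 9.68, 9.66 and 9.61 in platelet iTreg, 9.60, 9.68 and 9.63 in purified iTreg and 9.61, 9.78 and 9.68 in Tconv. The groups overlapped in every comparison. Its log2 difference was -0.04 for platelet iTreg against Tconv (interval -0.21 to 0.13; adjusted p = 0.689) and -0.06 for purified iTreg against Tconv (interval -0.23 to 0.11; adjusted p = 0.567). These intervals leave no room for a change of the size of the fold cutoff. The other Lef1 probe set differed from Tconv by 0.16 in platelet iTreg and 0.04 in purified iTreg, and neither passed.

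Tox, an HMG-box factor known from thymic selection and from exhausted T cells, depended on the probe set. Its brightest probe set, 1425484_at, read 7.54, 7.44 and 7.38 in platelet iTreg, 7.68, 7.73 and 7.67 in purified iTreg and 7.68, 7.67 and 7.45 in Tconv. The groups overlapped against Tconv, with differences of -0.15 for platelet iTreg (interval -0.34 to 0.04; adjusted p = 0.189) and 0.09 for purified iTreg (interval -0.10 to 0.28; adjusted p = 0.404). The second, 1425483_at, read 7.53, 7.47 and 7.54 in platelet iTreg, 7.47, 7.71 and 7.65 in purified iTreg and 7.05, 7.14 and 7.02 in Tconv. All 6 iTreg arrays of this probe set lay above the Tconv arrays. Its difference from Tconv was 0.44 in platelet iTreg (adjusted p = 0.00119), short of the fold cutoff, and 0.54 in purified iTreg (adjusted p = 2.75e-04), which was called higher. The third, 1442039_at, read 0.38 and 0.29 higher and was not called. In platelet iTreg the sign of the Tox difference, and in purified iTreg its call, rested on which probe set was read.

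Txk encodes a TEC-family tyrosine kinase that acts below the T cell receptor. Its 1 probe set read 7.49, 7.66 and 7.53 in platelet iTreg, 7.93, 8.02 and 8.07 in purified iTreg and 5.72, 5.83 and 5.87 in Tconv. The 3 groups were separate, with purified iTreg highest. Txk rose 3.37-fold in platelet iTreg against Tconv (log2 change 1.75 ± 0.08, SE; interval 1.57 to 1.94; adjusted p = 2.62e-08) and 4.59-fold in purified iTreg (2.20 ± 0.08; interval 2.02 to 2.38; adjusted p = 4.02e-09).

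Dapl1 encodes a small death-associated-protein-like product and is used as a transcript mark of naive and stem-like T cells. It read 7.47, 7.44 and 7.47 in platelet iTreg, 6.71, 6.73 and 6.90 in purified iTreg and 8.61, 8.68 and 8.82 in Tconv. As for Satb1, the groups were separate and in the order purified iTreg, platelet iTreg, Tconv. Dapl1 was 2.36-fold lower in platelet iTreg than in Tconv (log2 change -1.24 ± 0.09, SE; interval -1.43 to -1.05; adjusted p = 4.01e-07). In purified iTreg it was 3.79-fold lower (-1.92 ± 0.09; interval -2.11 to -1.73; adjusted p = 1.26e-08). It had 1 probe set, so no second reading was possible.

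Igfbp4 encodes a secreted protein that binds insulin-like growth factors. It gave the largest change of the 7 genes against Tconv on the main probe sets. It read 10.83, 10.99 and 10.82 in platelet iTreg, 11.68, 11.86 and 11.82 in purified iTreg and 8.10, 8.25 and 8.47 in Tconv. The 3 groups were far apart, with purified iTreg highest and Tconv lowest. Igfbp4 rose 6.09-fold in platelet iTreg against Tconv (log2 change 2.61 ± 0.10, SE; interval 2.38 to 2.84; adjusted p = 8.4e-09) and 11.4-fold in purified iTreg (3.52 ± 0.10; interval 3.29 to 3.74; adjusted p = 5.13e-10). All 6 of its probe sets were called higher in both comparisons, by 1.73 to 2.94 in platelet iTreg and by 2.68 to 3.99 in purified iTreg. Some of these probe sets share transcript sequence, so they are not independent readings. The brightest of them, 1437406_x_at, was passed over as the main one because of its suffix. It gave the lowest of these changes, 1.73 and 2.68, and in platelet iTreg it lay just below the 1.75 of Txk.

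**Figure D2:**
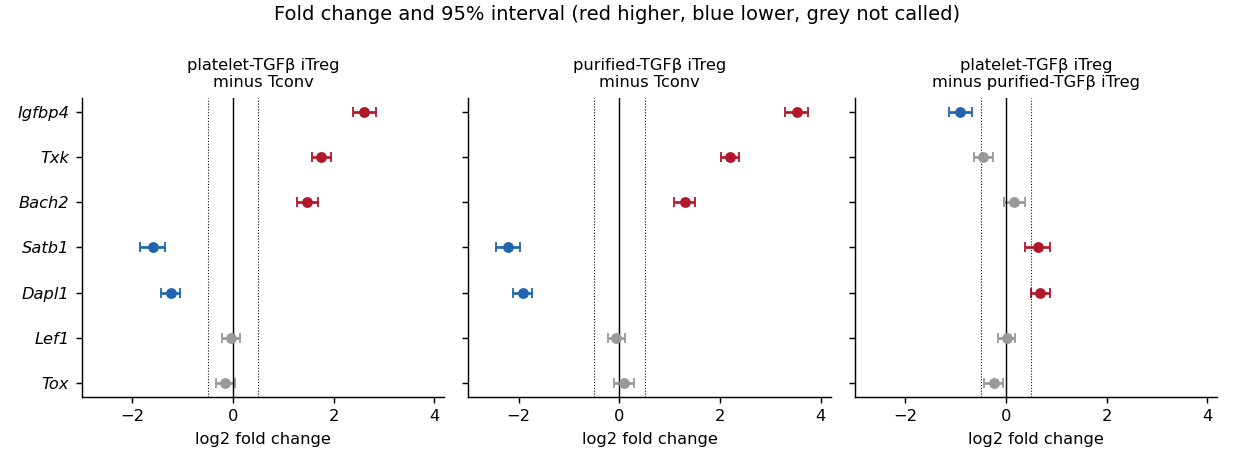
Log2 difference (horizontal axis) of the main probe set of each measured gene in platelet iTreg against Tconv, purified iTreg against Tconv and platelet iTreg against purified iTreg; points are estimates and bars 95% intervals. Igfbp4 reaches 2.61 and 3.52 against Tconv, and the interval of Lef1 spans 0 in every comparison.

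The comparison of the iTreg groups sets cells given platelet lysate against cells given purified TGFβ1. The source of TGFβ, its dose and the other contents of the lysate cannot be told apart in it. The differences in this comparison are between iTreg arrays only. The Tconv arrays still entered the choice of main probe sets and the model's estimate of spread, and so the intervals, adjusted p-values and calls. In this comparison 4.11% of all genes were called, 1.54% higher and 2.57% lower in platelet iTreg. Of the 7 measured genes, 3 were called: Satb1 and Dapl1 were higher in platelet iTreg and Igfbp4 was lower. For these 3 genes the platelet iTreg value lay between the purified iTreg and the Tconv values. The arrays of the groups did not overlap for 6 of the 7 genes, against 28.2% of all genes, with Lef1 the exception. Of the 21 probe sets, 3 were called higher and 6 lower in platelet iTreg, where 1.16% of all probe sets were higher, 2.09% lower and 3.25% called. All 6 lower ones were those of Igfbp4.

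Satb1 averaged 9.01 ± 0.03 in platelet iTreg and 8.39 ± 0.13 in purified iTreg (SD, n = 3 each), a 1.54-fold difference (log2 change 0.63 ± 0.11, SE; interval 0.38 to 0.87; limma adjusted p = 0.00589). Of its 5 probe sets, 2 were called higher in platelet iTreg. With the mean over the 5 probe sets the difference was 0.35 and the call was lost. Dapl1 averaged 7.46 ± 0.02 in platelet iTreg and 6.78 ± 0.11 in purified iTreg, a 1.60-fold difference (0.68 ± 0.09; interval 0.49 to 0.87; limma adjusted p = 6.08e-04). Igfbp4 averaged 10.88 ± 0.09 in platelet iTreg and 11.79 ± 0.10 in purified iTreg, which made it 1.88-fold lower in platelet iTreg (-0.91 ± 0.10; interval -1.14 to -0.68; limma adjusted p = 2.98e-04). All 6 Igfbp4 probe sets were called lower in platelet iTreg, with log2 changes of -1.05 to -0.75. Fitted on the 6 iTreg arrays alone, the 3 differences were unchanged at 0.63, 0.68 and -0.91 and the 3 calls held, with limma adjusted p of 0.00361, 0.00151 and 5.37e-04.

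Txk averaged 7.56 ± 0.09 in platelet iTreg and 8.01 ± 0.07 in purified iTreg (SD, n = 3 each). Its difference of -0.45 (interval -0.63 to -0.26; limma adjusted p = 0.00813) passed on p and fell short of the fold cutoff. Bach2 differed by 0.17 (interval -0.04 to 0.38; limma adjusted p = 0.466), Tox by -0.24 (interval -0.43 to -0.05; limma adjusted p = 0.182) and Lef1 by 0.02 (interval -0.15 to 0.18; limma adjusted p = 0.966). None of these 4 was called. For Lef1 and Bach2 the upper limits of the main probe sets were below the fold cutoff of 0.5. The Bach2 probe set 1445460_at read 0.36 higher in platelet iTreg (interval 0.14 to 0.57, limma adjusted p = 0.0683). It passed on p and fell short of the fold cutoff, but its interval reached beyond that cutoff.

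**Figure D3:**
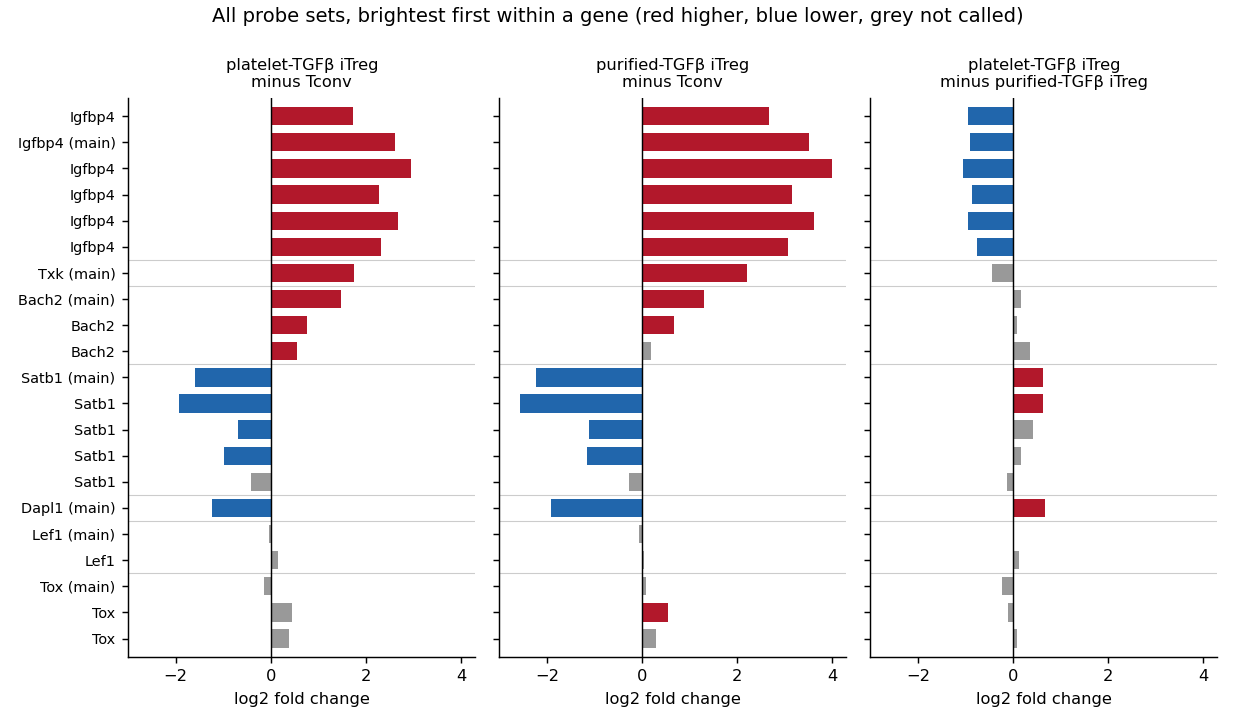
Log2 difference of all 21 probe sets of the 7 measured genes in the 3 comparisons, 1 bar per probe set, with the main probe set named in the axis label. All 6 Igfbp4 probe sets lie on the same side in each comparison, while the Tox probe sets lie on both sides of 0 in platelet iTreg against Tconv.

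The profiles of the genes were set side by side by the root mean square (RMS) difference of their 9 values, each centred on the gene's own mean. Satb1 and Dapl1 were close to each other, at 0.237. Satb1 was closer still to Txk with the sign turned, at 0.119, so that one mirrored the other over the 3 groups. Txk and Bach2 were 0.399 apart and Txk and Igfbp4 0.549. Lef1 and Tox, which hardly varied, were 0.128 apart. These distances describe 9 arrays that fall into 3 groups, and genes with the same group means are near by construction.

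Among 16313 other genes searched, the nearest profiles were named for each gene that changed. For Satb1 these were the glucose transporter gene Slc2a3 (RMS difference 0.167), Tm6sf1 (0.177) and Mcrip2 (0.194). For Dapl1 they were Jade2 (0.0838), Sema4b (0.0880) and the AP-1 family factor Batf (0.0889). For Bach2 they were Btbd1 (0.0509), Hnrnpdl (0.0553) and Zfp809 (0.0661), and for Txk Smim3 (0.0663), Slc44a1 (0.0992) and N4bp1 (0.107). For Igfbp4 they were the receptor phosphatase gene Ptprj (0.108), the AP-1 factor Jun (0.172) and the chemokine receptor Ccr6 (0.184). Jun averaged 8.88 in platelet iTreg, 9.65 in purified iTreg and 6.52 in Tconv.

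The pathways around these genes were read from lists, whose counts are set beside the shares over all genes. Those shares were 28.5% called in platelet iTreg against Tconv, 29.3% in purified iTreg against Tconv and 4.11% between the iTreg groups. TCF and LEF act with β-catenin as activators and with the TLE proteins as repressors. Of 21 genes of this WNT list, all measured, 6 were higher, 4 lower and 11 not called in platelet iTreg against Tconv (median -0.21, beside -0.16 over all genes), and 6, 3 and 12 in purified iTreg (median -0.14, beside -0.17). The corepressor Tle1 rose by 1.21 and 1.31 on the log2 scale, and its other probe set by 1.58 and 2.26. Tle4 rose by 0.89 and 0.85 on its main probe set only, and Apc, a scaffold that marks β-catenin for destruction, by 1.71 and 1.68. Other members, named after their values were seen, went both ways: the corepressor Tle3 fell by 0.80 and 0.61, β-catenin itself (Ctnnb1) rose by 0.85 and 0.98, and its inhibitor Ctnnbip1 fell by 1.28 and 1.15. Between the iTreg groups 0 of the 21 were called. Of the closest relatives of Tcf7 and Lef1, Tcf7l1 was called lower in purified iTreg (-0.50) and read -0.46 in platelet iTreg, and Tcf7l2 was called in neither.

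In the homing and quiescence list, more genes were called higher than lower in iTreg. Of 20 measured of 22, 8 were higher, 1 lower and 11 not called in platelet iTreg against Tconv (median 0.27, beside -0.16 over all genes). In purified iTreg the counts were 11, 2 and 7 (median 0.53, beside -0.17). Klf2, the factor that switches on lymph node homing receptors, rose by 1.66 in platelet iTreg and 3.03 in purified iTreg. S1pr1, the receptor that lets T cells leave lymph nodes, rose by 1.17 and 1.64. Slfn2, a gene needed for T cell quiescence in mice, was lower in purified iTreg (-1.41) and differed by -0.03 from Tconv in platelet iTreg, and between the iTreg groups it was 1.38 higher in platelet iTreg. Klf2 was lower in platelet iTreg than in purified iTreg (-1.37), as was Tsc22d3 (-1.18), a glucocorticoid-induced gene. That comparison called 2 higher and 4 lower of the 20 (median -0.16, beside 0.01 over all genes).

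The stem-like and memory-precursor list, 15 measured of 16, had 7 higher, 2 lower and 6 not called in platelet iTreg against Tconv (median 0.27, beside -0.16 over all genes). In purified iTreg the counts were 4, 4 and 7 (median 0.24, beside -0.17). Xcl1, a chemokine that attracts dendritic cells, rose by 3.75 and 2.91 and Cxcr3 by 1.44 and 1.81. Myb, a factor of T cell survival and self-renewal, rose by 1.25 in platelet iTreg and 2.05 in purified iTreg. The 2 genes called lower in platelet iTreg, named after their values were seen, were Id3, an inhibitor of E proteins (-1.04, and -0.89 in purified iTreg), and the surface receptor Slamf6 (-0.89 and -1.13). Both were called lower in purified iTreg too. Between the iTreg groups, Eomes, a T-box factor, was 1.38 higher in platelet iTreg and Bcl6 and Myb were lower (-0.64 and -0.79). That comparison called 3 higher and 2 lower of the 15.

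Further lists held the relatives of Txk, Tox and Igfbp4. Their counts too stand beside 28.5% and 29.3% of all genes called against Tconv and 4.11% between the iTreg groups. For TEC kinases and proximal receptor signalling, 15 measured of 17, 2 were higher and 4 lower in platelet iTreg against Tconv, and 1 and 3 in purified iTreg. Tec, a relative of Txk, rose by 0.94 and 1.16, and Zap70, the kinase recruited to the receptor, fell by 1.03 and 1.15 on the log2 scale. The Tox relatives Tox2, Tox3 and Tox4 were called in none of the comparisons. In the list of TOX family and inhibitory receptors, 13 measured of 14, 5 were higher and 2 lower in platelet iTreg against Tconv, 4 and 4 in purified iTreg, and 6 and 1 between platelet and purified iTreg. Among the inhibitory receptors Ctla4 rose by 2.36 and 1.86 and Lag3 fell by 2.28 and 2.46. Of 15 IGF and insulin genes, all measured, 1 was higher and 1 lower in platelet iTreg against Tconv and 2 and 0 in purified iTreg. Igfbp4 is not counted there, and Igfbp1, Igfbp2, Igfbp3, Igfbp5, Igfbp6 and Igfbp7 were called in none of the comparisons. Igf2r, which takes up IGF2 for degradation, rose by 0.50 and 1.36. Between the iTreg groups 0 TEC genes were called, and of the IGF genes Igf2r was called lower in platelet iTreg (-0.86). Bach1, the close relative of Bach2, rose by 1.35 and 1.22, while its other probe set read -0.02 and -0.01.

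**Figure D4:**
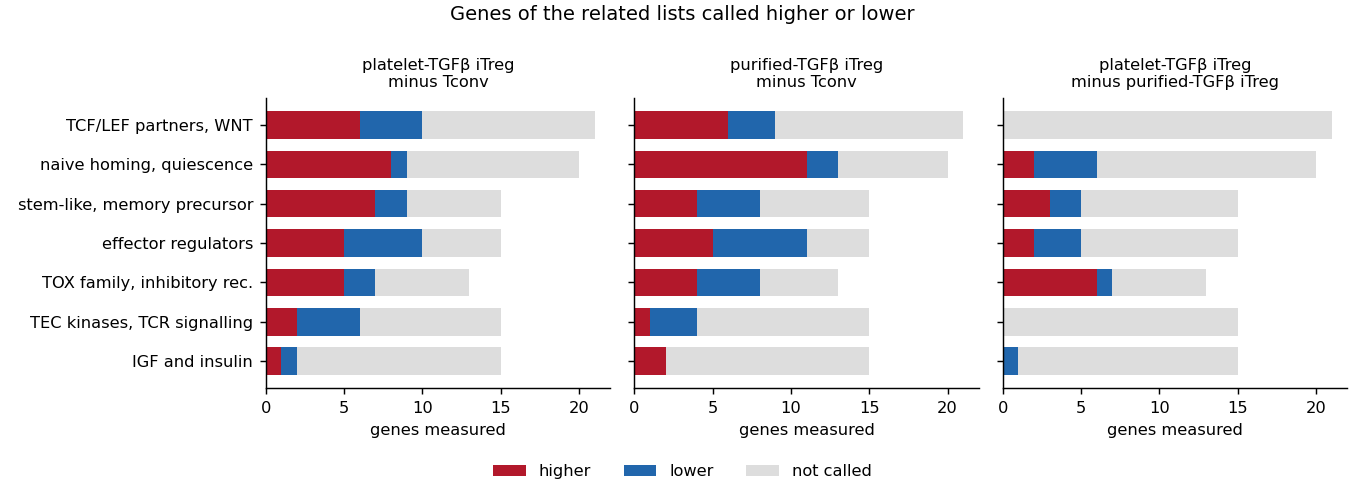
Number of measured genes (horizontal axis) of each related list that were called higher, called lower or not called in the 3 comparisons, as stacked bars. Of the homing and quiescence genes, 8 are higher and 1 lower in platelet iTreg against Tconv, and 11 and 2 in purified iTreg.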

How the data were processed

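Total RNA of 9 samples, 3 per group, was hybridised to Affymetrix arrays. The authors deposited log2 expression values per probe set, which per the series' design text came from Expression Console after the RMA procedure (background correction, quantile normalization, 1 value per probe set). The text also names ANOVA in Partek Genomics Suite 6.6 and cutoffs of 1.4-fold, given there as a log2 ratio of more than 0.5 in size, and a false discovery rate of 10%. RMA compresses values near background, so small folds of dim genes are understated. The table held 45101 rows. The 64 control probe sets were left out and 45037 tested. Names came from the platform annotation: 34945 probe sets had 1 symbol, 932 several and 9160 were not listed.

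One limma model (limma 3.58.1, R 4.3.3) with a mean per group gave 3 contrasts, tested two-sided. Calls used the cutoffs of the authors, 0.1 for the adjusted p and 0.5 for the size of the log2 change. An exact test of 3 against 3 arrays cannot go below 0.1, so none was used. Precision is limited by how few arrays there were. The model was tested on simulated data. Other software was matplotlib 3.10.9, pandas 2.3.3 and Python 3.11.15.

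The genes, the lists and the tests were chosen with earlier results of these data known, so they are no independent evidence. Named list genes are those called with the lowest adjusted p, up to 3 per list and comparison. Relatives of the 8 genes, and Cd3d, Foxp3, Xist and Eif2s3y as checks, were named whatever their values. Alternatives covered the scaling, filters on dim probe sets, the variance model, the choice of probe set, the cutoffs, the replicate number as a block and leaving out each array. Promoter windows came from RefSeq, GRCm38.p6.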

Additional observations from a re-analysis of the deposited data

How the results depend on the processing

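Over 21 alternatives, 428 of 441 values of the 7 genes kept their direction and their side of the cutoffs. No call of Igfbp4, Txk, Bach2, Satb1 or Dapl1 against Tconv was lost in any of them. The reversed values were those of Lef1 and Tox, whose main probe sets were not called. Lef1 in platelet iTreg against Tconv read 0.01 with array medians centred, 0.06 with the mean of its probe sets and 0.16 with the most variable probe set, which gave 0.04 in purified iTreg. Tox in platelet iTreg against Tconv read 0.23 with the mean of its probe sets (limma adjusted p = 0.00937). It read 0.44 with the most variable one (limma adjusted p = 0.00119), which was called higher in purified iTreg (0.54). Tox in purified iTreg against Tconv read -0.15 after quantile normalization. Between the iTreg groups, the mean of its probe sets lowered the Satb1 difference to 0.35, which ended the call, and Txk passed with no fold cutoff. With an adjusted p under 0.05 and 2-fold, 0 of the 7 genes were called there. With no fold cutoff, 9522, 9993 and 1335 genes were called in platelet iTreg against Tconv, purified iTreg against Tconv and platelet against purified iTreg, and with 2-fold 1839, 2033 and 169, where the reported cutoffs gave 5194, 5339 and 748. Among called genes the share that was higher was 48.5% and 49.3% against Tconv, and 38.4% and 38.6% after quantile normalization, 55.3% and 56.5% with array medians centred and 69.7% in each at 2-fold. Of 1890 counts over the lists, 130 moved by more than 1.5 times. Leaving out 1 array in turn, Igfbp4 ran from 2.52 to 2.71, from 3.43 to 3.61 and from -0.96 to -0.87 in the 3 comparisons, and no call of the 7 genes was lost. With the replicate block, 5194, 5339 and 745 genes were called and no call of the 7 genes changed. Same-numbered arrays correlated at 0.0919 to 0.262 between the iTreg groups, where 6 of 6 arrays were closest to their own number. Between Tconv and the iTreg groups they correlated at -0.123 to 0.0854. The main fit did not take the numbers as pairs, and a pairing of the iTreg groups was not tested on their arrays alone. The causes of these shifts were not tested. The deposited values hold no detection calls, so whether dim probe sets such as that of Foxp3 read above background is not known.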

Other observations

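Regulators of effector differentiation, a list of 16 genes of which 15 were measured, included the factors Maf, Ahr and Nfil3. In platelet iTreg against Tconv 5 were higher and 5 lower, and in purified iTreg against Tconv 5 and 6. Over all genes 28.5% and 29.3% were called in these comparisons. Maf, a factor of IL10 and Th17 programmes, averaged 8.78 in platelet iTreg, 10.14 in purified iTreg and 3.66 in Tconv (mean log2 value). Ahr, the aryl hydrocarbon receptor, averaged 7.78, 9.05 and 3.49 in the same groups on its main probe set, while its other probe set was not called. Nfil3, a basic leucine zipper repressor, was lower by 2.12 in platelet iTreg and by 2.37 in purified iTreg on the log2 scale. Between the iTreg groups Maf and Ahr were lower in platelet iTreg (-1.36 and -1.27) and Bhlhe40 was higher (0.80).

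Of 6 genes that mark regulatory T cells, 4 were higher and 1 lower in each iTreg group against Tconv, where 28.5% and 29.3% of all genes were called. Ikzf2, which encodes Helios, rose by 2.48 in platelet iTreg and 3.00 in purified iTreg, and Il2ra, the high-affinity chain of the IL2 receptor, by 1.73 and 1.68. Tnfrsf18, which encodes the costimulatory receptor GITR, was the gene called lower (-0.63 and -1.34), and Foxp3 was the one not called (0.07 and -0.02). Nrp1 was lower in platelet iTreg than in purified iTreg (-1.06), and Tnfrsf18 was higher there (0.71).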
